A study of Mus musculus with 47 samples.

Results

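Leukaemic spleens with high Eras RNA were compared with spleens of low Eras RNA among those in which RNA of early B and T cells was low. The arrays were chosen by measured log2 values of the microarray: both Vpreb1 and Cd3d had to be at or below 7, and Eras then divided the arrays at 7. Vpreb1 encodes part of the surrogate light chain of precursor B cells, and Cd3d encodes a chain of the T cell receptor complex. The rule kept 25 of 47 arrays, 8 with Eras above 7 (Eras-high) and 17 with Eras at or below 7 (Eras-low), and set 22 arrays aside. Each array held the spleen RNA of 1 mouse.

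All mice carried 3 engineered alleles. The first, Tg(ACTB-cre)2Mrt, expresses Cre recombinase from a beta-actin promoter that is active in most tissues. Gt(ROSA)26Sortm2(sb11)Njen supplies the Sleeping Beauty transposase from the Rosa26 locus once Cre has acted. The mobile element came from a transposon array, TgTn(sb-T2/Onc2)6070Njen or TgTn(sb-T2/Onc2)6113Njen. Every tumour, on both sides, was labelled as spleen tumour with undifferentiated myeloid leukaemia at the terminal stage, so no healthy spleen serves as a reference. Labels also told if a transposon had landed in Erg, an ETS transcription factor gene of blood stem cells and megakaryocytes. Of the Eras-high spleens, 4 of 8 had the Erg insertion label and 4 of 8 carried line 6070. Of the Eras-low spleens, 12 of 17 had the Erg label and 12 of 17 carried line 6070. The remaining mice carried line 6113. Age labels ran from 32 to 78 on the Eras-high side and from 50 to 89 on the Eras-low side, with no unit given.

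Eras encodes a Ras-family GTPase of embryonic stem cells. Unlike most Ras proteins it stays bound to GTP without an upstream signal, and it is known for feeding the PI3K and AKT pathway. The gene lies on the X chromosome and is best known from the early embryo. A T2/Onc2 transposon carries a promoter with a splice donor and can switch on genes next to its insertion, or break genes it lands in.

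The sides were selected on Eras, so its values are a description. In the 8 Eras-high arrays, numbered 1 to 8 from the highest, Eras measured 11.01, 10.59, 10.45, 10.16, 9.33, 9.21, 8.92 and 7.88 on the log2 scale. In the 17 Eras-low arrays the lowest value was 4.94, the median 5.06 and the highest 6.41. The means were 9.69 ± 1.04 (SD, n = 8) and 5.38 ± 0.48 (SD, n = 17), a difference of 4.31 log2 units. The value just inside the threshold was thus 7.88 and the one just outside 6.41. Of the Eras-low arrays, 7 lay above 5.5 and formed a tail between the floor and the threshold. None of the 22 arrays set aside passed the Eras threshold (0 of 22); the highest reached 6.78 and the median was 5.00. The same comparison in spleens with high Vpreb1 or Cd3d, and the test of whether the contrasts differ, could therefore not be run.

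**Figure D1:**
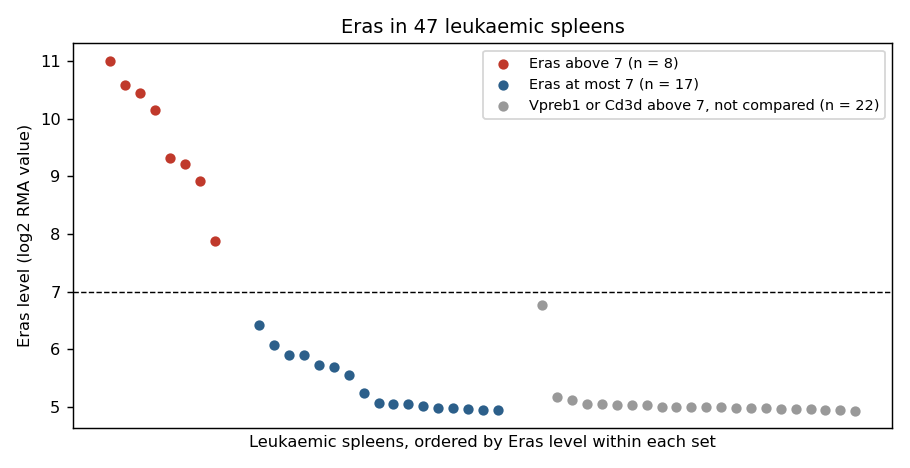
Eras level (log2 RMA value, vertical axis) in each of 47 leukaemic spleens, 1 point per array, ordered within the 3 sets; the dashed line is the threshold of 7. The 8 Eras-high arrays lie between 7.88 and 11.01, and the 17 Eras-low arrays between 4.94 and 6.41.

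A single probe set measured Eras. Its name ends in x_at, which marks a set whose probes can partly match other transcripts, so no other probe set tells whether all of this signal is Eras. Vpreb1 ran from 5.28 to 6.71 on the Eras-high side and from 5.21 to 5.71 on the Eras-low side. Cd3d ran from 5.29 to 6.79 and from 5.24 to 6.54. Both genes entered the rule and were not tested.

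The sequence around the start of Eras is shown because Eras divides the arrays, and that of Hdac6, the next gene on the same strand, because its values are set beside those of Eras. Both are 300 bases of reference around the start, from RefSeq on GRCm38.p6, on the minus strand. Eras occupies chrX:7928558-7928857 and Hdac6 chrX:7947840-7948139. Capitals mark GC boxes, the letters GGGCGG or their reverse complement CCGCCC.
Eras: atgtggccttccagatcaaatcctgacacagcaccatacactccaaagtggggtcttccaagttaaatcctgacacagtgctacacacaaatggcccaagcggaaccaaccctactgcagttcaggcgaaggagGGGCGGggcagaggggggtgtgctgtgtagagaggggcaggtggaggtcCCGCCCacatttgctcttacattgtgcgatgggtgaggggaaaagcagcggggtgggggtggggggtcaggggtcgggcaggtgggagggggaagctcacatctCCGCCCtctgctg
Hdac6: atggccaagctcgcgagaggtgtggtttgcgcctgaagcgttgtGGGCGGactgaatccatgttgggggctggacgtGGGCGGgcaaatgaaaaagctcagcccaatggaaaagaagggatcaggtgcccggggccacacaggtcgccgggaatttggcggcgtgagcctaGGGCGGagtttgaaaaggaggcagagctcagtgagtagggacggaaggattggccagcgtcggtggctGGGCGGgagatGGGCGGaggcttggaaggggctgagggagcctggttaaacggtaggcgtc
The Eras window holds 3 GC boxes and 8 CpG dinucleotides and is 60.0% G and C. The Hdac6 window holds 5 GC boxes and 20 CpG dinucleotides and is 62.0% G and C. Over 32851 mouse promoters of this length, 35.7% hold a GC box, the median is 7 CpG dinucleotides, and 53.8% of bases are G or C. The letters AGATAA (in 11.2% of promoters on either strand), CACGTG (7.15%) and TATAAA (13.6%) were not found in either window. No array value bears on the sequence of these tumours, and these matches describe the reference only.

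The neighbours of Eras on the X chromosome were examined to see whether high Eras RNA went with higher RNA of the genes beside it. None of the 12 measured neighbours, 6 on each side, passed an adjusted p of 0.05 (limma with Benjamini-Hochberg adjustment over 18175 genes, of which 0% passed in this comparison). Hdac6, which encodes a cytoplasmic deacetylase of tubulin, measured 5.93, 6.13, 5.90, 5.84, 5.67, 5.87, 5.74 and 5.56 in arrays 1 to 8. Its Eras-low values had a lowest of 5.498, a median of 5.59 and a highest of 5.81. Thus 7 of 8 Eras-high arrays lay above the Eras-low median, with overlap of the sides, and the difference was 0.20 ± 0.05 (SE; unadjusted p = 0.000661, adjusted p = 0.690 by limma). The Hdac6 mean was 5.83 in the Eras-high arrays and 5.80 in the 22 arrays set aside, none of which had Eras above 7. Pqbp1, a gene of RNA splicing on the other side, measured between 6.73 and 7.00 in the Eras-high arrays. Its Eras-low range was 6.81 to 7.31 around a median of 7.07, so 0 of 8 Eras-high arrays lay above that median. The difference was -0.19 ± 0.04 (SE; adjusted p = 0.450 by limma), but a dimmer second probe set of Pqbp1 differed by 0.01.

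Gata1, the master regulator of red cells and megakaryocytes and 2 genes from Eras, had means of 7.95 ± 0.20 (SD, n = 8) and 7.98 ± 0.19 (SD, n = 17). Its difference of -0.03 had a 95% confidence interval from -0.20 to 0.13. Was, the Wiskott-Aldrich syndrome gene that organises actin in blood cells, differed by -0.27 ± 0.11 (SE; adjusted p = 0.805 by limma). Pim2, a survival kinase gene, differed by -0.09, Otud5 by -0.09, Timm17b by -0.09 and Slc35a2 by -0.04. Pcsk1n, whose end overlaps that of Eras in the RefSeq gene table, differed by 0.02. The remaining differences were 0.05 for Glod5, 0.00 for Gm6787 and -0.02 for Wdr13. Beside the 4.31 units of Eras, on which the sides were selected, no neighbour's means differed by more than 0.27. Pim2, Pcsk1n, Glod5 and Gm6787 had side means between 5.10 and 5.46, near the floor, where a change in RNA may not show.

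**Figure D2:**
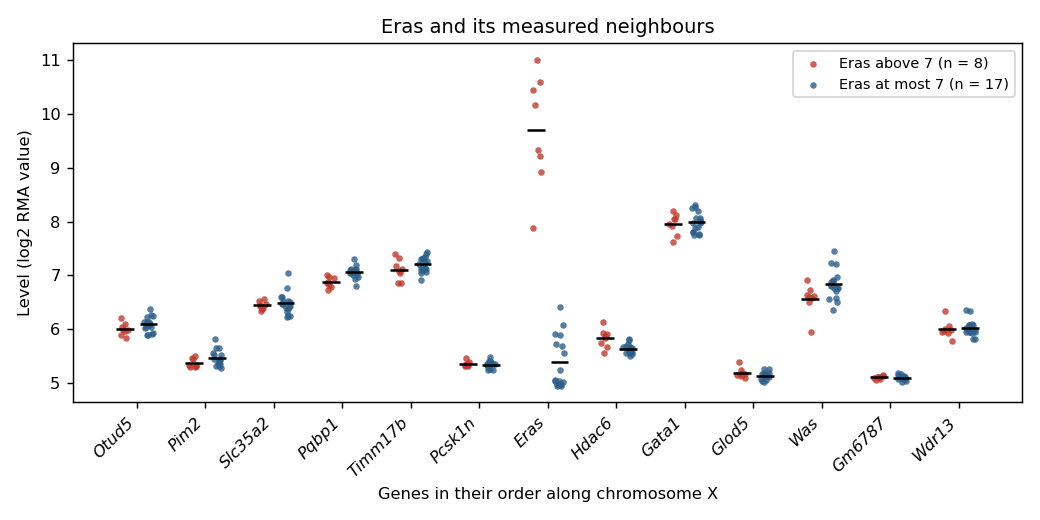
Levels (log2 RMA value, vertical axis) of Eras and its 12 measured neighbours in chromosomal order, 1 point per array, red for 8 Eras-high and blue for 17 Eras-low spleens, with bars at the means. Eras alone separates, by the rule, while the sides overlap at each neighbour.

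Across the 18175 genes tested, 0 were higher and 0 were lower in Eras-high spleens at an adjusted p under 0.05. At an unadjusted p under 0.05, 569 genes (3.13%) were higher and 511 (2.81%) lower, 1080 in all. For 0 genes did the sides fail to overlap. The median difference was 0.002, and 9574 of the differences were positive. The 95% interval lay within 1 log2 unit of 0 for 99.4% of genes, within 0.5 for 96.0% and within 0.25 for 83.2%. Dim genes sit near the floor of the RMA scale, where differences are compressed, so narrow intervals there bound the measured value and not the RNA. A difference above 0.5 in size was seen for 68 genes and above 1 for 2, the neutrophil genes S100a8 and S100a9.

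The genes named next were chosen after their values were seen, mostly for a small p and in the case of Cela1 for its size. Enpp3, a cell-surface nucleotide phosphodiesterase found on basophils and mast cells, had the smallest adjusted p, 0.0645 by limma. It measured 5.35, 5.38, 5.38, 5.31, 5.30, 5.33, 5.34 and 5.46 in arrays 1 to 8, against 5.17 to 5.31 with a median of 5.23 on the Eras-low side. All 8 Eras-high arrays lay above that median, but the difference was 0.11 ± 0.02 (SE), close to the floor. The other 4 probe sets of Enpp3 differed by 0.19, 0.04, 0.10 and -0.003. Enpp3 passed the adjusted threshold when Eras-high array 5 or 7, or Eras-low array 1 or 15, was left out; without Eras-high array 7, Mapre1 and Snx9 passed as well, which made 3 genes.

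Gna14 encodes a G protein alpha subunit that couples receptors to phospholipase C. It measured 6.62, 6.22, 5.56, 6.45, 6.00, 6.07, 5.88 and 6.28 in arrays 1 to 8 and 5.33 to 6.08, median 5.64, in the Eras-low arrays. Array 3 lay below the Eras-low median and the other 7 above it; the difference was 0.49 ± 0.11 (SE; adjusted p = 0.450 by limma). Ryr2, a calcium release channel gene, differed by 0.25 ± 0.06 (SE) with 6 of 8 arrays above the Eras-low median. Cela1, an elastase-like serine protease gene, differed by 0.67 ± 0.27 (SE), with 8 of 8 above the median and an adjusted p of 0.780 by limma.

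Among negative differences, Snx9, a sorting nexin of endocytosis, differed by -0.27 ± 0.06 (SE), and its dimmer second probe set by -0.11. Mapre1, a microtubule plus-end binding protein gene, measured 8.57 to 9.10 in Eras-high and 8.92 to 9.25 in Eras-low arrays, a difference of -0.25 ± 0.05 (SE). All 5 probe sets of Mapre1 had negative differences, from -0.25 to -0.05. Inpp5f, a phosphoinositide phosphatase gene, differed by -0.20 ± 0.05 (SE) with 0 of 8 Eras-high arrays above the Eras-low median. For Snx9, Mapre1 and Inpp5f the adjusted p was 0.450 by limma.

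**Figure D3:**
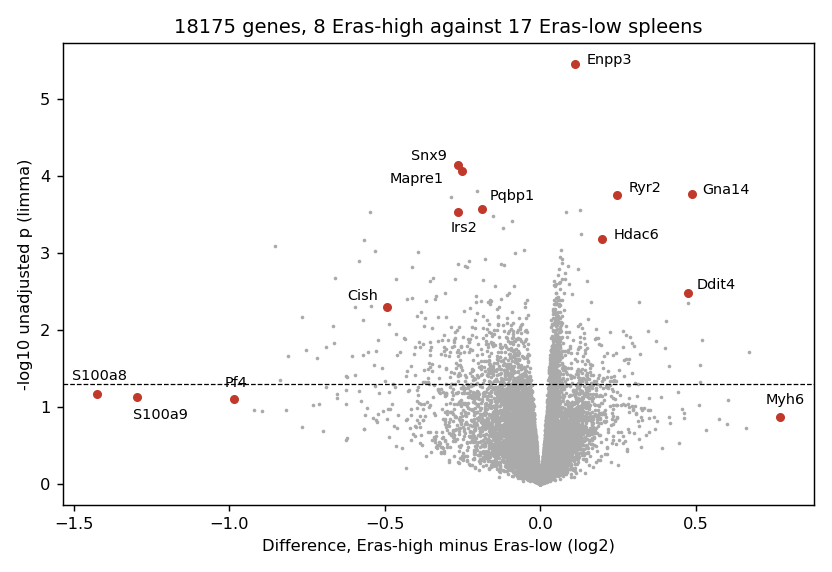
Difference of each of 18175 genes between 8 Eras-high and 17 Eras-low spleens (log2, horizontal axis) against -log10 of the unadjusted limma p (vertical axis); the dashed line is p = 0.05. Labelled points are genes named in the text; Enpp3 has the smallest p and S100a8 the largest difference, -1.43.

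The pathways downstream and upstream of a Ras protein were examined next. Each list below had 0 members past the adjusted threshold in either direction, against 0% of all genes. Each is described by its signs, its median and its members with the smallest p. Nras, Klf1, Pf4, Csf3r and Erg, also given below, were chosen after their values were seen. In the list of 24 tested Ras family GTPases besides Eras, 9 differences were positive and 15 negative, with a median of -0.02. At an unadjusted p under 0.05, 3 were higher and 2 lower, beside 3.13% and 2.81% of all genes. Rit1, a Ras relative that activates MAP kinases, differed by -0.31 ± 0.11 (SE) and Rasl12, near the floor, by 0.06 ± 0.02 (SE). Nras, a classic Ras oncogene, had means of 7.39 and 7.42, a difference of -0.03 with a 95% interval from -0.12 to 0.06.

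Of 23 genes for Ras activators and GTPase-activating proteins, 6 differences were positive and 17 negative, with a median of -0.04. At an unadjusted p under 0.05, 0 were higher and 3 lower (2.81% of all genes were lower). Rasa3, which turns off Ras and Rap in platelets and blood progenitors, measured 5.55, 5.56, 5.81, 5.71, 5.81, 5.69, 6.28 and 5.78 in arrays 1 to 8. Its Eras-low values ran from 5.56 to 7.19 with a median of 6.14. Only array 7 lay above that median, and the difference was -0.40 ± 0.13 (SE; adjusted p = 0.780 by limma). Rasal3, a relative of blood cells, differed by -0.23 ± 0.10 (SE), with 1 of 8 above the Eras-low median.

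The 20 targets and feedback genes of the ERK pathway were divided, with 10 positive and 10 negative differences and a median of 0.00. In this list 1 was higher and 0 were lower at an unadjusted p under 0.05, beside 3.13% and 2.81% of all genes. Kcnn4, a calcium-gated potassium channel gene that ERK signalling induces, had the smallest p of this list. It ran from 8.06 to 8.84 in Eras-high and from 7.42 to 8.44 in Eras-low arrays, a difference of 0.29 ± 0.11 (SE; adjusted p = 0.780 by limma). Spred3, an inhibitor of the pathway, differed by 0.04. The extremes of the list were -0.24 for Egr1 and 0.37 for Phlda1.

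Of 34 genes of PI3K, AKT, mTOR and FOXO, the pathway Eras is known to feed, 14 differences were positive and 20 negative, with a median of -0.03. At an unadjusted p under 0.05, 1 was higher and 4 were lower, beside 3.13% and 2.81% of all genes. Irs2 encodes an adaptor between the insulin receptor and PI3K and is a FOXO target. It measured 5.34, 5.29, 5.31, 5.24, 5.57, 5.47, 5.72 and 5.51 in arrays 1 to 8 and 5.42 to 6.09, median 5.69, on the Eras-low side. All but array 7 lay below that median; the difference was -0.26 ± 0.06 (SE; adjusted p = 0.450 by limma). Ddit4, an inhibitor of mTOR complex signalling that stress and hypoxia induce, measured 8.13, 7.96, 7.93, 8.11, 7.82, 8.02, 7.81 and 7.69. The Eras-low range of Ddit4 was wider, 6.64 to 8.14 with a median of 7.38, and all 8 Eras-high arrays lay above the median. Its difference was 0.47 ± 0.15 (SE; adjusted p = 0.780 by limma).

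The 26 embryonic stem cell genes, among which Eras was first described, had 10 positive and 16 negative differences and a median of -0.003. Of these, 3 were higher and 1 lower at an unadjusted p under 0.05, beside 3.13% and 2.81% of all genes. Fgf4, a growth factor of embryonic stem cells, differed by 0.05 near the floor. Prdm14, a pluripotency regulator, differed by 0.41 ± 0.18 (SE). This rested on array 8 at 7.03 and array 6 at 6.25, since the other 6 Eras-high arrays lay between 4.95 and 5.11 and the Eras-low arrays between 4.96 and 5.11.

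The spleen's cell types were compared through marker lists. In bulk tissue, fewer cells of a type and less RNA per cell cannot be told apart. Klf1, a regulator of red cell genes, lay between 9.08 and 9.65 in Eras-high and between 7.69 and 9.76 in Eras-low arrays, and its means differed by 0.18 (95% interval -0.19 to 0.55), or by 0.08 without Eras-low array 5. The label of an undifferentiated myeloid leukaemia stands beside mixed levels of myeloid genes. Mpo, which marks granulocyte precursors, was at most 5.62 in the Eras-high and 8.82 in the Eras-low arrays. Its medians were 5.35 and 5.46, and 2 Eras-low arrays lay above 7. Elane, of the same precursors, was at most 5.48 and 5.92. Csf1r, of the monocyte and macrophage list, was above 7 in 7 Eras-high and 16 Eras-low arrays. C1qa, of that list, was above 7 in 8 and 15. Adgre1 and Cd68, also of that list, were above 7 in 0 arrays of either side. S100a8, of neutrophils, was above 7 in 1 and 8.

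Of 27 erythroid genes 11 differences were positive and 16 negative, with a median of -0.04. Slc4a1, the anion exchanger of mature red cells, varied most within the Eras-high side, at 9.17, 9.47, 10.24, 7.40, 7.76, 7.50, 8.90 and 5.81 in arrays 1 to 8. Its Eras-low values ran from 7.96 to 10.78, and the difference was -0.71 ± 0.41 (SE; adjusted p = 0.811 by limma), or -0.36 without array 8. Icam4, a red cell adhesion gene, differed by 0.23. Among 19 haem synthesis and iron genes the median was 0.01; Uros differed by 0.31, with 8 of 8 above the Eras-low median, and Alad by -0.42, or -0.20 without array 8.

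In the megakaryocyte and platelet list 22 of 23 differences were negative, with a median of -0.23, and no gene passed the test. Over all 18175 genes 9574 were positive, and the median was 0.002. Pf4, platelet factor 4, measured 7.47, 9.54, 9.43, 6.25, 7.77, 7.36, 9.53 and 9.36 in arrays 1 to 8 and 6.64 to 11.23, median 9.28, in Eras-low arrays. The Eras-high arrays thus lay on both sides of the median, 4 above and 4 below, and the difference was -0.99 ± 0.54 (SE; adjusted p = 0.810 by limma). Itga2b, the platelet integrin alpha chain, differed by -0.62 ± 0.29 (SE) and Nrgn by -0.53 ± 0.26 (SE). The mean level of the list ran from 5.99 to 6.70 in Eras-high and from 6.09 to 8.13 in Eras-low arrays. Genes of 1 lineage share their source, so their signs are not independent.

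Neutrophil and granule genes had 21 negative and 3 positive differences of 24, with a median of -0.25. S100a8, a calcium-binding protein of neutrophils, measured 7.70, 5.62, 6.15, 6.06, 5.62, 5.60, 5.05 and 6.47 in arrays 1 to 8. On the Eras-low side the lowest was 5.21, the median 6.58 and the highest 11.71. It exceeded 7 in 1 of 8 Eras-high and 8 of 17 Eras-low arrays; the difference was -1.43 ± 0.75 (SE; adjusted p = 0.805 by limma). S100a9, its partner, differed by -1.30 ± 0.70 (SE). The mean level of the list ran from 5.38 to 5.60 in Eras-high and from 5.32 to 7.37 in Eras-low arrays. Csf3r, the receptor for granulocyte colony-stimulating factor, had a positive difference of 0.66 ± 0.49 (SE), with arrays 1 and 8 at 5.36 and the other 6 between 7.49 and 8.66. The part of neutrophil and platelet RNA in the differences of other genes was not tested.

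Of 32 monocyte and macrophage genes 28 differences were negative and 4 positive, with a median of -0.13, and 0 were higher and 5 lower at an unadjusted p under 0.05 (2.81% of all genes were lower). Fcgr3, an Fc receptor gene, measured 5.72, 6.03, 6.10, 5.83, 5.76, 5.75, 5.85 and 5.84 in arrays 1 to 8. Its Eras-low values ran from 5.73 to 6.54 with a median of 6.15, above all 8 Eras-high arrays. The difference was -0.27 ± 0.08 (SE; adjusted p = 0.780 by limma). Adgre1, the classic surface marker of spleen macrophages, differed by -0.14 with 0 of 8 above the Eras-low median.

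**Figure D4:**
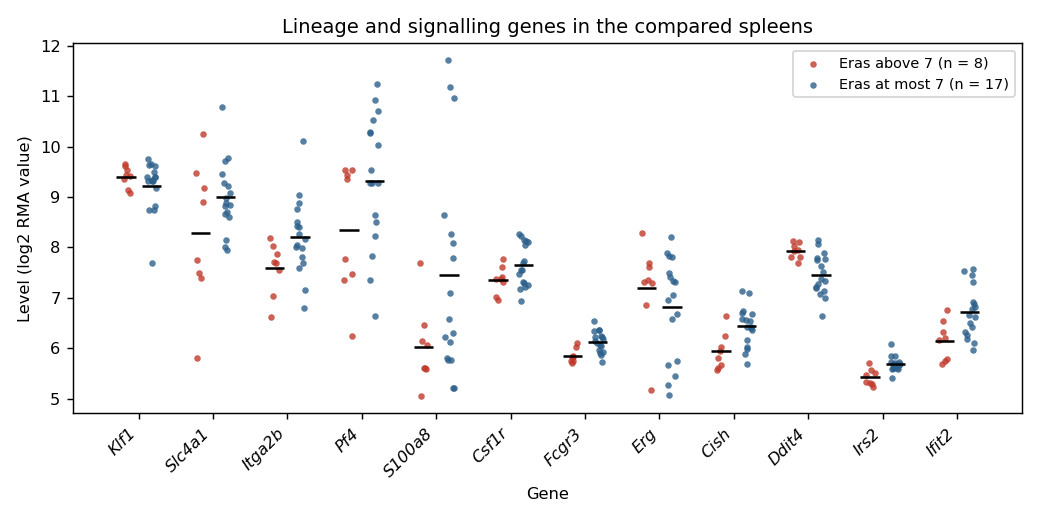
Levels (log2 RMA value, vertical axis) of 12 lineage and signalling genes, 1 point per array, red for 8 Eras-high and blue for 17 Eras-low spleens, with bars at the means. The sides overlap at every gene; S100a8 spans 5.05 to 7.70 in Eras-high and 5.21 to 11.71 in Eras-low spleens.

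In the 29 stem and progenitor genes, 15 differences were positive and 14 negative, around a median of 0.001. Lyl1, a transcription factor of blood stem cells, differed by -0.37 ± 0.13 (SE; adjusted p = 0.780 by limma), and Hoxa7, a homeobox gene, by 0.06 with 7 of 8 above the Eras-low median. Erg RNA had means of 7.20 ± 0.91 (SD, n = 8) and 6.81, a difference of 0.39 with a 95% interval from -0.45 to 1.23. Array 3 was at 5.18 and the other 7 between 6.86 and 8.28. Arrays 3, 4, 5 and 8 lack the Erg insertion label, and arrays 4, 5 and 8 had Erg at 6.86, 7.62 and 7.32. The Erg difference was 0.68 without array 3 and 0.24 without array 7. A dimmer second probe set of Erg had means of 5.69 and 5.54, a difference of 0.15. In 36 leukaemia oncogenes and suppressors the median was -0.02; Hoxa9 differed by 0.06 and Tet2 by -0.11.

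Medians of the lymphoid and other immune lists lay near 0. They were -0.03 for 23 B cell genes, -0.01 for 26 T and NK cell genes, -0.01 for 12 plasma cell genes and -0.01 for 21 dendritic cell and MHC class II genes. The rule had set aside every array with Vpreb1 or Cd3d above 7. Small differences of B and T cell genes were therefore largely set by the rule and are a description only. The mean level of the B cell list ran from 5.40 to 5.73 in Eras-high and from 5.31 to 5.98 in Eras-low arrays. Igll1, the partner of Vpreb1 in the surrogate light chain, differed by 0.13, Cd72 by -0.07, Gata3 by -0.14 and Klrd1 by -0.08. For the plasma cell list, Fkbp11 differed by 0.04 and Xbp1 by -0.29; Flt3 and Cadm1, of dendritic cells, differed by 0.12 and 0.13. The median of 19 mast cell, basophil and eosinophil genes was -0.02, with Il4 at -0.08 and Il6ra at -0.06. Stroma and endothelium genes had 27 of 33 negative differences and a median of -0.07; Pdgfra, of fibroblasts, differed by -0.16 and Tie1, of endothelium, by -0.05.

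Signalling programmes gave the following pattern. Interferon-stimulated genes had 21 of 22 negative differences and a median of -0.24; 1 was lower at an unadjusted p under 0.05, beside 2.81% of all genes. Ifit2, an antiviral gene of this response, measured 5.76, 6.54, 6.76, 5.70, 6.20, 5.79, 6.32 and 6.17 in arrays 1 to 8 and 5.97 to 7.57, median 6.67, in Eras-low arrays. Only array 3 lay above that median, and the difference was -0.57 ± 0.20 (SE; adjusted p = 0.780 by limma). Gbp3, a guanylate-binding protein gene, differed by -0.30 ± 0.16 (SE). The mean level of the list overlapped widely, from 5.84 to 7.16 and from 5.73 to 7.57.

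JAK-STAT targets and cytokine signalling genes had 19 of 25 negative differences and a median of -0.09, and 3 were lower at an unadjusted p under 0.05, beside 2.81% of all genes. Cish, a STAT5-induced inhibitor of cytokine receptors, measured 5.61, 6.03, 6.25, 5.58, 5.81, 5.68, 6.65 and 5.95 in arrays 1 to 8. Its Eras-low range was 5.69 to 7.14 with a median of 6.43, and only array 7 lay above it; the difference was -0.49 ± 0.16 (SE; adjusted p = 0.780 by limma). Il6st, the shared receptor chain gp130, differed by -0.21 ± 0.07 (SE) with 0 of 8 above the Eras-low median.

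The amino acid response list had 16 of 19 positive differences and a median of 0.09. Slc7a11, the cystine transporter, differed by 0.08 ± 0.02 (SE) with 8 of 8 above the Eras-low median, near the floor at 5.04 to 5.25. Chac1, a glutathione-degrading enzyme induced by ATF4, differed by 0.19 ± 0.10 (SE). Hypoxia and glycolysis genes had a median of -0.01, with Ddit4 as above and the glucose transporter Slc2a3 at -0.51 ± 0.22 (SE).

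Cell cycle genes were balanced, with 18 positive and 18 negative differences and a median of 0.001; Cdc6 differed by 0.19 and Ccnd3 by -0.20. The p53 target list had a median of -0.01, with Cdkn1a at 0.30 and Sesn2 at 0.09. Leaving out 1 array gave 0.18 (without array 6) to 0.47 (without array 1) for Cdkn1a and 0.05 for Sesn2 (without array 4). Immediate early and heat shock genes had a median of -0.01, with Junb at -0.12 ± 0.03 (SE; adjusted p = 0.759 by limma) and Dnajb1 at 0.23. Cholesterol and fatty acid synthesis genes had a median of -0.03, with Idi1 at -0.40 and Fdft1 at -0.21.

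**Figure D5:**
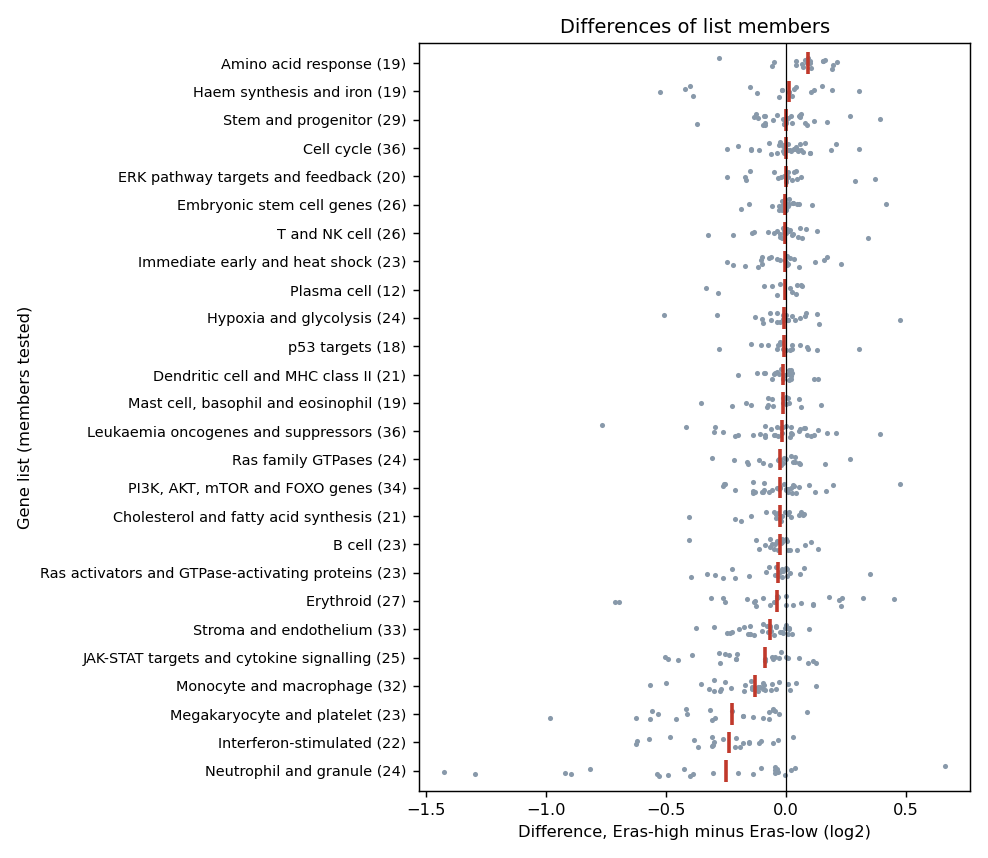
Differences (log2, Eras-high minus Eras-low, horizontal axis) of the tested members of 26 gene lists (vertical axis, members tested in brackets), 1 point per gene, with a red bar at each list's median. Medians lie between -0.25 for neutrophil genes and 0.09 for amino acid response genes; 0 members passed the adjusted threshold.

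Labels and measures of the arrays were compared between the sides in a family of 8 tests. A further label, an identifier number of 7, 8 or 9, was not among them. It was unevenly spread. On the Eras-high side only array 1 had number 7 and most arrays had number 9. On the Eras-low side 7 and 9 were almost equally common, with 7 slightly ahead. All compared arrays with number 7 carried line 6070. With this number as a block in the limma fit, no gene passed the adjusted threshold. The age labels of Eras-high mice 1 to 8 were 78, 68, 47, 36, 32, 62, 56 and 55, and those of the Eras-low mice had a lowest of 50, a median of 74 and a highest of 89. The means were 54.25 ± 15.57 (SD, n = 8) and 69.71 ± 13.38 (SD, n = 17), and 7 of 8 Eras-high mice lay below the Eras-low median. The difference of -15.46 had p = 0.0184 by a two-sided exact permutation test and 0.147 after Benjamini-Hochberg adjustment over the 8 tests, so it did not pass. Without mouse 4 the difference was -12.85 (exact permutation p = 0.0511), and without mouse 5 it was -12.28 (exact permutation p = 0.0571). Within the 6070 line the difference was -19.17 (exact permutation p = 0.0374) and within the 6113 line -11.8 (exact permutation p = 0.262). Among mice with the Erg insertion label it was -6.67 (exact permutation p = 0.340), and among those without -20.1 (exact permutation p = 0.0794). With the age label as a covariate, 16 of 76 named genes moved by more than 1.5 times. Among them Csf3r was at 0.003, Ccnd3 at -0.02, Itga2b at -0.30, Nrgn at -0.28, Pf4 at -0.57, Lyl1 at -0.22, Rasa3 at -0.26, S100a8 at -0.91 and S100a9 at -0.86.

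The Erg insertion label (4 of 8 against 12 of 17; two-sided Fisher's exact test, p = 0.394) did not differ detectably between the sides. The line 6070 label had the same counts and p. Labelled females were 5 of 8 and 9 of 17 (Fisher's exact test, p = 1.00). Xist, transcribed from the silenced X of females, was above 7 in 4 of 8 and 10 of 17 arrays (Fisher's exact test, p = 1.00). Eras lies on the X chromosome, and arrays with and without Xist stood on both sides. The labelled sex matched Xist in 5 of 8 Eras-high, 6 of 17 Eras-low and 23 of 47 arrays in all, so which label belongs to which array is in doubt, and results that rest on labels carry that doubt. The 3 prime minus 5 prime difference of the control probe sets, a measure of RNA quality, was 1.30 ± 0.30 (SD, n = 8) and 1.50 ± 0.42 (SD, n = 17; exact permutation p = 0.248).

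The rule's limit on Vpreb1 and Cd3d mattered to the count of genes. When the 8 Eras-high arrays were set against all 39 others, 52 genes passed an adjusted p of 0.05 by limma, 35 higher and 17 lower. In that setting Gna14 differed by 0.71 (adjusted p = 0.0027 by limma). All arrays with high Vpreb1 or Cd3d fall on the low side there, so Eras level and lymphoid RNA cannot be told apart. Gata1, at -0.03 within the 25 arrays, differed by 0.72 and Flt3 by -0.91 in that wider setting.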

How the data were processed

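RNA of 47 leukaemic mouse spleens was measured on Affymetrix mouse genome arrays. The deposited log2 values were made by the authors with RMA (affy, R 2.15), per the submitters' processing notes; RMA corrects background, quantile normalizes arrays and summarises probes. Values ran from 4.78 to 12.99, with array medians of 5.19 to 5.24; the number of arrays limits the precision. Of 45101 probe sets, 34945 named 1 gene in the platform annotation, 932 several and 9160 none, and 64 were controls. The probe set with the highest mean over the 47 arrays stood for each of 18193 genes. Genes above 5 in at least 9 arrays were kept (18178), and Eras, Vpreb1 and Cd3d were left out of the test, which left 18175.

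Sides were compared with limma 3.58.1 (lmFit, eBayes; R 4.3.3) and Benjamini-Hochberg adjustment over all tested genes at 0.05, without covariates; the procedure was tested on simulated data. Single measures had exact permutation tests and labels Fisher's exact test. Members and the 26 gene lists were chosen with earlier results of these data known. Named were genes past the threshold and, where none passed, the 2 members of each list with the smallest p. So were 6 neighbours of Eras on each side by the RefSeq gene table. Genes chosen after their values were seen are marked as such, and Myh6 was among them. The alternatives changed the thresholds, filter, probe sets, covariates and arrays. Scanner files were not used here. Each mouse is a separate animal.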

Additional observations from a re-analysis of the deposited data

Results flagged for a closer look

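In 11 of 78 measures checked over the 8 Eras-high arrays, the highest or lowest array stood apart, with a gap to its nearest neighbour, as a share of the range, above Dixon's 95% limit for 8 values. Chance flags about 1 in 20 groups. Array 8, with the lowest Eras of its side, was highest for Myh6 at 11.22 (the cardiac myosin heavy chain; the other 7 arrays were at most 5.08), for Cadm1 at 6.80 and for Glod5, a neighbour of Eras, at 5.39. Without array 8 the Myh6 difference was -0.002, against 0.77 with it.

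Array 1, with the highest Eras, was highest for Nras at 7.56 and S100a9 at 7.07 and lowest for Was, another neighbour of Eras, at 5.95. In array 3, Erg was lowest at 5.18, while Gata3 at 5.36 and Rasal3 at 6.02 were highest. Array 7 was highest for Rasa3 at 6.28 and for Pdgfra at 5.69.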

How the results depend on the processing

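Of 46 alternatives to the comparison across genes, 38 gave 0 genes past the threshold and 8 gave 1 or more. The smallest adjusted p by limma ran from 0.0027 to 0.65. Leaving out the array with Myh6 above 7 and leaving out Eras-high array 8 are the same fit, counted under both names. The count was 1 (Ryr2) with all 47 arrays in 3 groups, 52 with no Vpreb1 and Cd3d threshold, 1 (Enpp3) with sex by Xist as covariate and 1 (Enpp3) with arrays centred on their median. Leaving out 1 array gave 0 to 3: Enpp3 without Eras-high array 5 or Eras-low array 1 or 15, and Enpp3, Mapre1 and Snx9 without Eras-high array 7. Counts at an unadjusted p under 0.05 ran from 308 to 3672, against 1080. These counts do not all share a denominator. The lowest, 308, came from a setting that tested only the brighter genes, so it does not show a fall from 1080. By chance, 908.8 of the 18175 genes would be expected to pass. With the age label as covariate, all 18175 genes were tested and the count lay below that number.

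The age difference was -12.19 with the Vpreb1 and Cd3d threshold at 6 (exact permutation p = 0.0804), -19.17 in line 6070 and -11.8 in line 6113, -6.67 with and -20.1 without the Erg insertion label, and -18.85 to -12.28 leaving out 1 array.

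Signs turned for 11 named genes. With no Vpreb1 and Cd3d threshold these were Alad 0.16, Flt3 -0.91, Gata1 0.72, Igll1 -1.22, Slc35a2 0.113, Timm17b 0.0278 and Wdr13 0.0838. At a Vpreb1 and Cd3d threshold of 6, Gata1 was 0.0186, Gm6787 -0.0019 and Wdr13 0.0288. At an Eras threshold of 8, Cadm1 was -0.0165 and Myh6 -0.345; at 6, Nras was 0.0326, Slc35a2 0.0232 and Wdr13 0.0515. With age as covariate Gata1 was 0.0321 and Gm6787 -0.0011, and with array weights Gm6787 was -0.0031 and Slc35a2 0.0003. With the mean of all probe sets Slc35a2 was 0.0036. Against Eras at or below 5.5, added after seeing the data, Gata1 was 0.0059, Gm6787 -0.0018, Slc35a2 0.0482 and Wdr13 0.0266. Without the array with Myh6 above 7, which is Eras-high array 8 and was also added later, Myh6 was -0.0017. Leaving out 1 array gave -0.0681 to 0.0163 for Gata1, -0.0045 to 0.0093 for Gm6787, -0.0017 to 0.887 for Myh6 and -0.0671 to 0.0129 for Wdr13. The cause was not tested.

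No paired analysis was possible because the sides were set from measured values and replicate numbers are only names. Values of dim genes are compressed near the floor, so their differences do not measure the size of a change in RNA.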

Other observations

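Single Eras-high spleens had genes of their own, a set chosen after values were seen. Counting genes at least 2 log2 units above every other of the 47 arrays, 6 of 8 Eras-high arrays held 14 such genes, 15 of 17 Eras-low arrays held 42, and 15 of the 22 arrays set aside held 48. In array 1, Bmper, a secreted BMP-binding protein gene, was at 10.29 where the next array was at 5.26, and Sdccag8, a centrosome gene, at 10.10 where the next was at 5.71. St6galnac3 at 7.92 and Tsg101 at 8.74 also stood out in array 1. Array 4 held Hgsnat at 9.82, Nrg4 at 8.38 and Vps13d at 8.74. Array 5 held Fam168a at 9.23, Zcchc24 at 7.97 and 4933430I17Rik at 7.18.

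Array 6 held Ino80, a chromatin remodeller, at 8.64, and array 7 held Eml1 at 7.74. Array 8 held Myh6 at 11.22 and Ccno at 7.62; the second probe set of Myh6 averaged 4.99 on the Eras-high side and 4.97 on the Eras-low side. Arrays 2 and 3 held none by this measure (0 genes). Insertion sites other than the Erg label were not analysed here.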
